A study of Sus scrofa with 3 samples.

Results

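The interval of porcine chromosome 7 from 22000000 to 31000000 bp of Sscrofa10.2 was taken as the place of the swine leukocyte antigen (SLA) complex, the major histocompatibility complex (MHC) of the pig. Its members were chosen by position alone: every differentially methylated CG site that lies in the interval and every differentially methylated region that starts in it. Over the lists of 3 breed comparisons these were 844 of 89093 sites and 206 of 25044 regions. The Enshi black pig (ES), a Chinese breed, differed there from the Large White pig (LW), which is European, at 310 sites and 65 regions. It differed from the Chinese wild boar (WB) at 337 sites and 77 regions, and LW and WB differed from each other at 197 sites and 64 regions.

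The lists come from bisulfite sequencing of liver DNA of male pigs at postnatal day 90, with 1 methylome for each of 3 breeds. The labels name no treatment and speak of 3 male pigs without saying whether their DNA was pooled. Each listed site or region carries the authors' estimated methylation level of both breeds compared, in percent of cytosines methylated. With 1 methylome per breed no test between breeds was possible, the read depth is unknown, and every level below belongs to a place listed because the breeds differed there. Breeds were read from the order of their codes in the names of the deposited tables, because the columns of levels are only numbered. The sample labels tie the table of ES and WB to the LW sample, but levels of sites held by 2 tables bear out the order: a breed's levels in both differed by medians of 0.0288, 0.0121 and 0.0109 percentage points for ES, LW and WB in the interval, where the turned order would give 9.41, 14.4 and 13.7.

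MHC class I molecules, such as SLA-1, SLA-2 and SLA-3, present peptides from inside the cell to cytotoxic T cells and are made by nearly all cells, hepatocytes included. Class II molecules, such as SLA-DR and SLA-DQ, present peptides taken up from outside and are made mainly by dendritic cells, macrophages and B cells. The stretch between them, class III, carries genes of complement and of inflammation, among them C2, CFB, C4A and TNF, and the transporters TAP1 and TAP2 and the proteasome subunits PSMB8 and PSMB9, which prepare peptides for class I, lie among the class II genes. Methylation of CG sites in mammals is high over most of the genome and low at many active promoters and CG-dense stretches.

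In the RefSeq table of the later assembly Sscrofa11.1, chromosome 7 carried 8 of the 9 class I genes, 8 of the 8 class II genes, 5 of the 5 genes of antigen processing and 22 of the 23 class III genes of the lists used here. Their order began with SLA-1, SLA-5, SLA-2, SLA-3 and SLA-11. FLOT1, IER3, DDR1 and POU5F1, counted here in the class III list, came next and so lay among the class I genes, before SLA-8, SLA-7 and SLA-6. LTA, TNF, LTB and the remaining class III genes followed as far as NOTCH4. The order then ran from SLA-DRA, SLA-DRB1, SLA-DQA1 and SLA-DQB1 over TAP2, PSMB8, TAP1 and PSMB9 to SLA-DMB, SLA-DMA, SLA-DOA and TAPBP. Since that table belongs to another assembly than the lists, it places no gene beside a listed region. Regions are therefore given by position on Sscrofa10.2 alone, and that the interval holds the SLA genes was not checked against gene models of this build.

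Differences between the breeds were crowded in the interval. It covers 6.69% of chromosome 7 (9 Mb of the length up to the last listed position, 134583700), but held 18.7% of the sites listed on the chromosome between ES and LW (95% Wilson interval 16.9% to 20.7%), 20.2% between ES and WB (18.4% to 22.2%) and 18.3% between LW and WB (16.1% to 20.7%). The shares of regions were 13.6% (10.8% to 16.9%), 14.9% (12.1% to 18.2%) and 16.7% (13.3% to 20.8%) in the same order. These intervals cover counting only, and they are too narrow because neighbouring sites share nearly the same levels. The 26 listed sites of a region from 22547529 to 22547812, for example, ranged from 32.8% to 33.0% in ES. Such levels are called smoothed below, which is inferred from the values because the caller of the differences is not known. Per Mb, ES and LW differed at 34.4 sites in the interval and 10.7 on the rest of the chromosome, a ratio of 3.21. The ratio was 3.54 between ES and WB (37.4 and 10.6 sites per Mb) and 3.12 between LW and WB (21.9 and 7.02). Regions were 2.19, 2.44 and 2.80 times as dense as on the rest of the chromosome. How many CG sites the interval offers for calling was not used here, so these are counts per length of DNA and not shares of its CG sites.

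**Figure D1:**
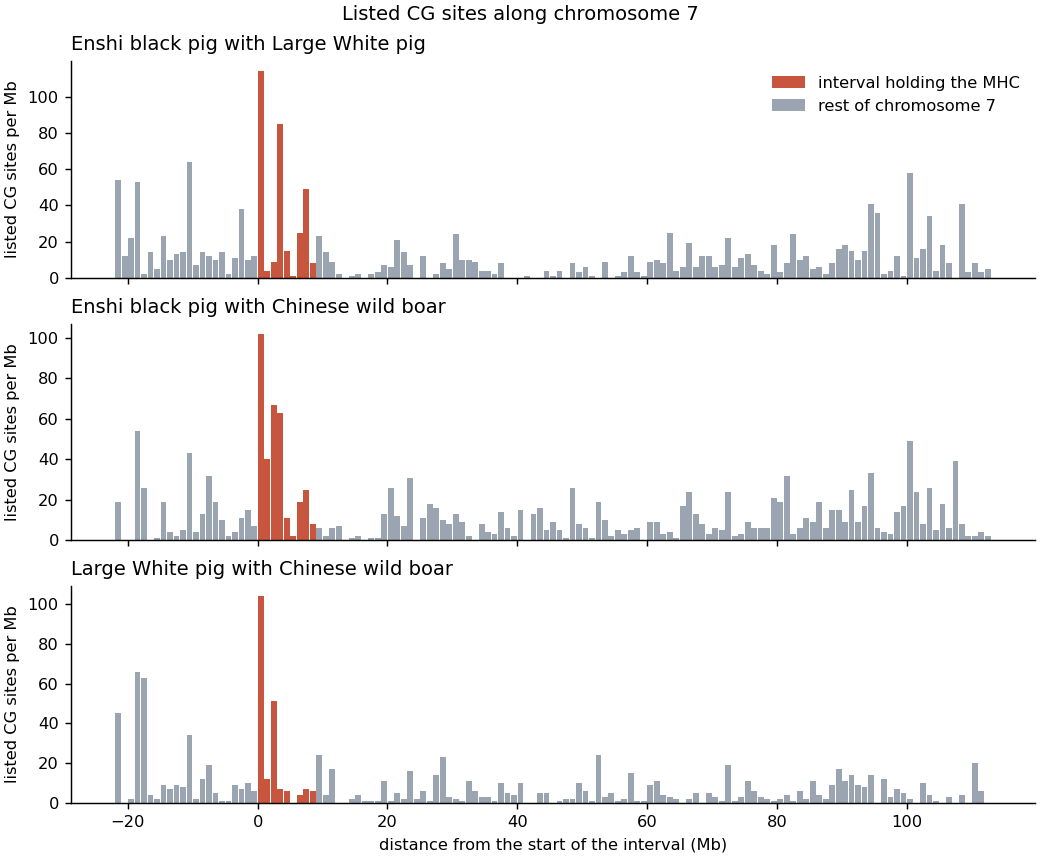
Listed CG sites in bins of 1 Mb (y axis) along chromosome 7 (x axis, distance from the start of the interval in Mb), with 1 panel per breed comparison; red bars are the interval and grey bars the rest of the chromosome. The first bin of the interval is the highest of the chromosome in each panel, at 114, 102 and 104 sites.

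Set beside windows of the same length, the interval ranked first of the 14 windows of 9 Mb on chromosome 7 in all 3 comparisons, for sites and for regions. Among 264 such windows on the 18 autosomes it ranked first for sites between ES and LW (310, next window 289) and between ES and WB (337, next window 320). For sites between LW and WB its rank was 4, and the fullest window held 232. For regions it ranked 5, 3 and 2 of the 264 windows, with 65, 77 and 64 regions against medians of 23.0, 24.0 and 16.0 in the other windows. The windows did not overlap. On chromosome 7 they were laid out to match the bounds of the interval, and on the other autosomes from the chromosome start. Ranks under another placing of the windows were not computed.

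Within the interval the listed sites lay mainly toward its start. The bin from 22 to 23 Mb held 114, 102 and 104 sites in the 3 comparisons and was the fullest 1 Mb bin of chromosome 7 in each. The fullest bins outside the interval held 64, 54 and 66 sites. From 25 to 26 Mb there were 85 sites between ES and LW and 63 between ES and WB, but 7 between LW and WB. From 24 to 25 Mb the counts were 9, 67 and 51, so that this bin was full in the comparisons with WB only. The bin from 27 to 28 Mb held 1, 2 and 0 sites. Regions were also most numerous from 22 to 23 Mb, where 18, 20 and 22 started, but did not follow the sites farther on. From 24 to 25 Mb 13, 15 and 12 regions started, a rank of 2 on the chromosome with ties included, although the first of these comparisons had 9 sites there. From 25 to 26 Mb 7, 9 and 7 regions started, although ES and LW had 85 sites there and LW and WB had 7. The median bin outside the interval held 3.0, 3.0 and 2.0 regions.

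The density between LW and WB rested in large part on the first bin. Without it their ratio of site density to the rest of the chromosome was 1.66 in place of 3.12, and with the interval narrowed by 1 Mb at each end it was 1.60. In the other comparisons the ratio without the fullest bin was 2.29 and 2.78.

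Which breed had the higher level at more sites differed between bins, and in some bins it rested on 1 region or a few. Over the whole interval ES was lower than LW at 45.2% of sites (140 of 310, 39.7% to 50.7%), against 54.0% on the rest of the chromosome and 56.2% of all listed sites. It was lower than WB at 65.0% (219 of 337, 59.7% to 69.9%), against 59.2% on the rest and 55.6% of all listed sites. LW was lower than WB at 41.6% (82 of 197, 35.0% to 48.6%), against 53.6% on the rest and 49.3% of all listed sites. Without the bin from 22 to 23 Mb this last share was 55.9%, on the other side of an even split. With that bin kept and at most 1 site per 100 bp it was 52.3%, also on the other side. Without the 1 region from 22547529 to 22547812 it was 48.0%.

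By regions, the shares lay near those of all listed regions. ES was the lower breed in 52.3% of the 65 regions against LW (55.0% of all listed regions) and in 57.1% of the 77 against WB (54.0% of all). LW was the lower breed in 48.4% of the 64 against WB (49.2% of all). All 3 of these intervals, 40.4% to 64.0%, 46.0% to 67.6% and 36.6% to 60.4%, include the share of all listed regions.

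From 22 to 23 Mb, LW was the higher breed at 67 of 114 sites against ES and at 74 of 104 against WB, whereas ES and WB were each higher at 51 of 102. Single regions decided the first of these counts. The 26 sites of 22547529 to 22547812 all had LW higher, and without them LW was higher than ES at 41 of 88 sites. The 30 sites of 22822325 to 22822868 all had ES higher, and without them LW was higher at 67 of 84. Against WB, LW was higher at 48 of 78 sites without the region at 22547529. Of these 48, 18 lay in 1 other region, from 22707488 to 22707756, where all listed sites had LW higher. By regions LW was higher than ES in 12 of 18 in this bin, but lower than WB in 12 of 22. From 23 to 24 Mb, WB was higher than ES at 40 of 40 sites, and from 24 to 25 Mb at 58 of 67. Without the region of most sites in each bin these were 19 of 19 and 31 of 40. Of the 19, 14 lay in 1 region from 23344547 to 23347867, with the same smoothed levels. Of the 40, 23 lay in a region from 24964121 to 24964754, all with WB higher. By regions WB was higher than ES in 5 of 7 from 23 to 24 Mb and in 9 of 15 from 24 to 25 Mb. From 25 to 26 Mb ES was higher at 65 of 85 sites against LW and at 45 of 63 against WB, but 39 and 33 of these lay in 1 region that starts at 25173976. Without it ES was higher than LW at 26 of 46 sites and higher than WB at 12 of 30, and by regions ES was lower than WB in 5 of 9. Of the 46 sites against LW, 25 lay in a region from 25050855 to 25051300, all with ES higher. From 29 to 30 Mb, WB was higher than ES at 25 of 25 sites, but by regions in 4 of 7. The 3 regions with ES higher held no listed site.

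**Figure D2:**
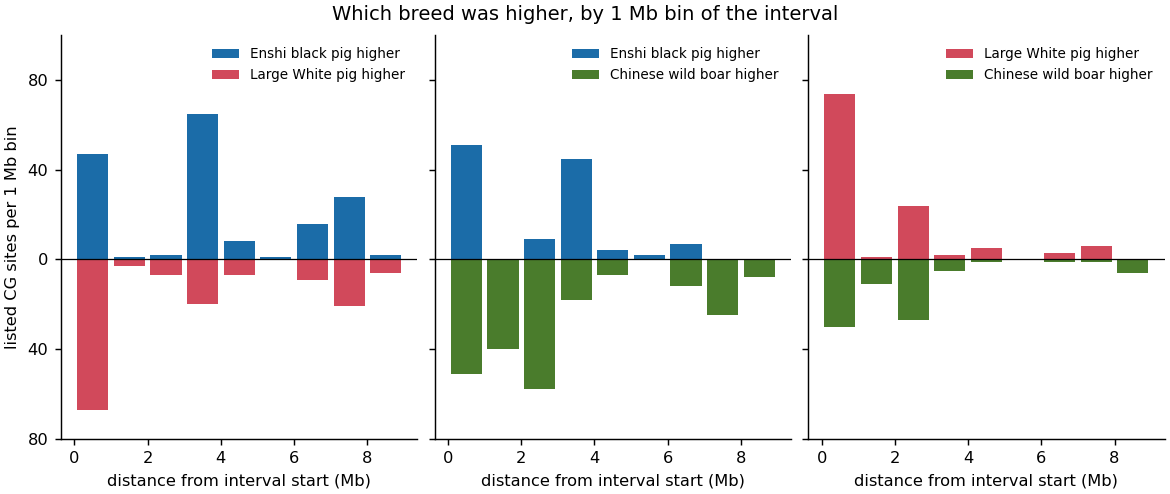
Listed CG sites by the breed with the higher level in bins of 1 Mb of the interval (x axis, distance from its start in Mb; y axis, number of sites, counted up from 0 where the first breed named was higher and down where the other was). The bar of ES 3 to 4 Mb from the start (65 of 85 and 45 of 63 sites) holds 39 and 33 sites of a single region, without which ES was higher than WB at 12 of 30 sites.

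Few regions carried these counts of sites. The 5 regions with the most listed sites held 46.8%, 36.8% and 47.7% of the sites of the interval, and 34 of 65, 44 of 77 and 37 of 64 regions held no listed site. A region from 25173976 to 25174783 held 39 of the 85 sites from 25 to 26 Mb between ES and LW. The same place (25173976 to 25174315) held 33 of the 63 between ES and WB. Without these sites ES was lower than LW at 51.7% of the sites of the interval and lower than WB at 72.0%.

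Listed sites in the interval lay in runs more often than elsewhere on the chromosome. Of the sites that differed between ES and LW, 85.8% fell within a listed region (266 of 310), against 63.5% on the rest of the chromosome. The shares were 89.6% and 66.6% between ES and WB, and 84.3% and 67.4% between LW and WB. A standard error is in general smaller where more reads or neighbouring sites enter an estimate, but how the authors computed theirs is not known. Their standard error of the difference had a median of 4.09, 3.97 and 4.43 percentage points at the sites of the interval and 6.47, 6.57 and 6.19 on the rest of the chromosome. Within listed regions it was 3.92, 3.85 and 4.30 in the interval and 5.12, 5.43 and 5.31 on the rest. The part of this precision in the density of listed sites was not tested.

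The regions of the interval were about as wide in difference as others. Their median absolute difference was 32.4 percentage points between ES and LW (order-statistic interval 29.4 to 37.5), 33.8 between ES and WB (30.9 to 38.7) and 30.9 between LW and WB (28.2 to 35.9). On the rest of chromosome 7 the medians were 31.8, 31.4 and 31.9. A difference of 40 points or more was found in 32.3%, 35.1% and 28.1% of the regions of the interval, and in 35.8%, 33.9% and 36.5% of all listed regions. Single listed sites differed less in the interval, by medians of 50.3, 47.4 and 47.6 points, against 57.0, 57.5 and 55.8 on the rest of the chromosome. Of these sites 87.1%, 75.1% and 84.8% differed by 40 points or more, against 86.0%, 86.3% and 87.2% on the rest.

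In size, the regions between ES and LW stood out for their CG sites. They held a median of 12.0 CG sites (9.0 to 16.0) against 8.0 (7.0 to 9.0) on the rest of the chromosome, and 58.5% of them had 10 or more, against 41.3%. In the other comparisons the medians were 9.0 and 8.5 in the interval and 8.5 and 8.0 on the rest. The density of CG sites within regions was similar, at 5.16, 6.06 and 6.31 per 100 bp in the interval and 5.57, 5.80 and 6.20 on the rest. Median lengths were 247, 215 and 140 bp, against 192, 188 and 169 bp.

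In the regions between ES and LW the higher breed reached 80% in 53.8% (41.9% to 65.4%), against 66.7% on the rest of the chromosome and 68.5% of all listed regions. In the other comparisons the shares were 58.4% (47.3% to 68.8%) and 56.2% (44.1% to 67.7%), and their intervals include the 64.7% and 65.9% of all listed regions. The lower breed was under 20% in 15.4% (8.58% to 26.1%), 9.09% (4.47% to 17.6%) and 12.5% (6.47% to 22.8%), and these intervals include the shares of all listed regions (8.87%, 8.72% and 8.87%). On the rest of chromosome 7 it was under 20% in 6.28%, 7.95% and 4.70%. No region of the interval combined both, with one breed under 20% and the other at 80% or more. With 0 of 65, 0 of 77 and 0 of 64 regions, shares of up to 4.62%, 3.90% and 4.69% are allowed, and the rest of the chromosome had 1.21%, 2.73% and 1.88%, so that a lack of such regions was not detectable at these counts.

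Counted by single sites, inside and outside regions together, this pattern had a smaller share in the interval. Neighbouring sites share smoothed levels, so these sites are not independent counts. Sites near empty in one breed and near full in the other, by the same limits, made up 2.90% of listed sites in the interval between ES and LW (9 of 310, 1.53% to 5.42%) and 17.0% on the rest of the chromosome. They made up 3.26% and 16.6% between ES and WB, and 4.06% and 17.8% between LW and WB. The shares are given apart for sites outside and inside listed regions. Outside regions the shares were 18.2%, 31.4% and 25.8% in the interval and 33.4%, 24.8% and 34.8% on the rest, and their intervals were wide. Inside regions the interval had 1 of 266, 0 of 302 and 0 of 166 such sites, where a count of 0 allows up to 0.993% and 1.81% (3 counts of the total). The rest of the chromosome had 7.60%, 12.5% and 9.60%, from 13 of 146, 20 of 154 and 12 of 101 regions that held a listed site. In the interval 31, 33 and 27 regions held a listed site, and 1 of the 31 and 0 of the others held a site of this kind.

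**Figure D3:**
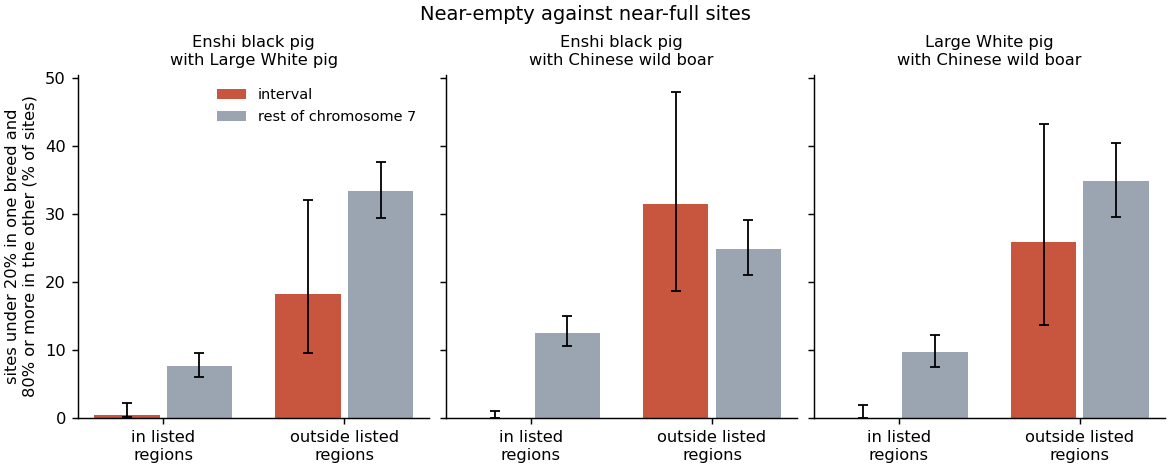
Share of listed CG sites under 20% in one breed and at 80% or more in the other (y axis, % of sites), inside and outside listed regions (x axis), in the interval (red) and on the rest of chromosome 7 (grey); error bars are 95% Wilson intervals, or at a count of 0 the limit of 3 counts, and cover counting only. Inside regions the red bars stand at 0.376%, 0% and 0%, and outside regions the error bars of both colours overlap.

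The widest differences among regions of at least 5 CG sites lay at a few places. Between ES and LW, 26 CG sites from 22547529 to 22547812 had a level of 32.8% in ES and 96.4% in LW. The same 284 bp had 96.5% in LW and 47.2% in WB. The authors' standard error of the difference had a median of 3.83 and 4.21 points over its 26 listed sites in these comparisons. LW was thus nearly full here and both other breeds were below 50%.

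In the opposite direction, 5 CG sites from 26573319 to 26573417 had 89.9% in ES and 26.7% in LW, with a larger median standard error of 10.6 points. A region of 6 CG sites from 28449960 to 28450129 had 81.4% and 24.2%. Neither place was listed in another comparison. The region from 25173976 to 25174783 had 96.6% in ES and 44.1% in LW over 39 CG sites, and its first 340 bp had 96.7% in ES and 34.4% in WB over 33. ES was nearly full there and the other breeds were not.

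Between ES and WB, the widest of these regions were of both directions. From 22817234 to 22817360, 5 CG sites had 97.6% in ES and 34.4% in WB. From 29403987 to 29404239, 8 CG sites had 36.2% and 99.0%. At 22707488 to 22707756, 18 CG sites had 69.2% in ES, 55.4% in LW and 7.79% in WB, and at 22710955 to 22711164, about 3 kb on, 8 CG sites had 31.5%, 45.1% and 90.9% in the same order. WB was thus the lowest breed at the first of these neighbours and the highest at the second.

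Between LW and WB, the widest of these differences with LW higher was at 23504520 to 23504653, with 72.3% and 18.3% over 5 CG sites. The widest with LW lower was at 22436239 to 22436566, with 45.8% and 96.0% over 6 CG sites, and ES had 98.7% in the region listed there against LW. Regions of 4 CG sites reached 59.9 points here and 64.8 points between ES and WB, and rest on too few CG sites to be named. A region of 5 CG sites from 30106529 to 30106655 had 42.7% in LW, 45.8% in ES and 91.5% in WB.

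The regions with the most CG sites were of smaller difference. At 29767625 to 29768235, 68 CG sites had 74.3% in ES and 52.9% in LW, and 37 CG sites of the same stretch had 57.9% in LW and 79.6% in WB. This stretch held no listed site. At 23092686 to 23093117, 49 CG sites had 22.7% in ES and 57.8% in WB. At 24964121 to 24964754, 53 CG sites had 57.9% and 90.6%. At 24626840 to 24627245, 47 CG sites had 59.6% in LW and 22.3% in WB. At 25050855 to 25051300, 43 CG sites had 74.1% in ES and 34.4% in LW.

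The 3 longest regions of each comparison ranged from 659 to 3321 bp and from 0.238 to 6.63 CG sites per 100 bp. Those over 1 kb had fewer than 1 CG site per 100 bp. Between ES and WB, 3321 bp from 23344547 to 23347867 held 15 CG sites at 48.5% and 93.2%. Between LW and WB, 2526 bp from 22102021 to 22104546 held 6 CG sites at 60.1% and 85.3%.

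Joined across the lists wherever they overlap, the 206 regions formed 142 loci. Of these, 59.9% were in 1 list (85 loci), 37.3% in 2 lists (53 loci, 29.8% to 45.5%) and 2.82% in all 3 (4 loci). On the rest of the chromosome 71.2% of 899 loci were in 1 list, 27.8% in 2 (25.0% to 30.8%) and 1.0% in 3. A locus in exactly 2 lists, with the breed common to both on the same side in both, is one where that breed stands apart from the others. All 53 loci in 2 lists of the interval were of this kind, which largely follows from the choice: a common breed lying between the others would place them far enough apart for the remaining list. On the rest of the chromosome it was 249 of 250. Any 2 of the comparisons share a methylome, so the lists are not independent of each other.

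The 3 breeds took similar parts of these loci. ES stood apart at 20 of the 142 loci (14.1%, 9.31% to 20.8%), WB at 17 (12.0%, 7.61% to 18.3%) and LW at 16 (11.3%, 7.06% to 17.5%). On the rest of the chromosome the shares were 12.8%, 7.56% and 7.34%, and 46.2% of the loci with a breed apart were those of ES, against 37.7% in the interval. The breed that stood apart was more often the lower one for ES (14 lower and 6 higher) and LW (11 lower and 5 higher), and was divided for WB (9 lower and 8 higher). The rest of the chromosome had 80 and 35, 46 and 20, and 38 and 30. These loci also differed in place. From 22 to 23 Mb LW stood apart at 9 loci, WB at 6 and ES at 1, of 40 loci. From 24 to 25 Mb WB stood apart at 6 of 29, and from 28 to 30 Mb ES at 6 of 24.

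**Figure D4:**
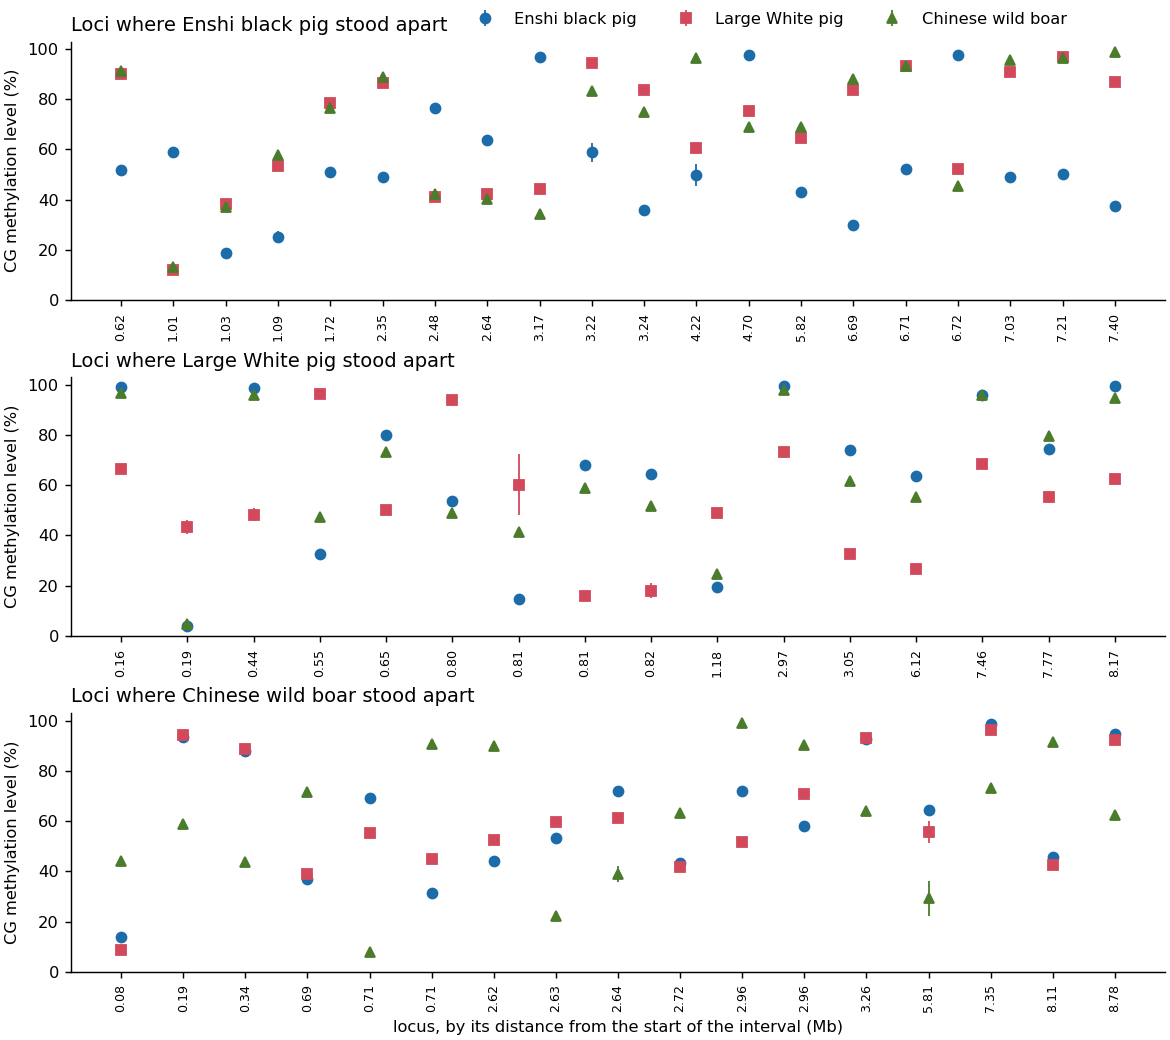
CG methylation level (y axis, %) of the 3 breeds at the loci of the interval where 1 breed stood apart in 2 lists (x axis, loci in order of their distance from the start of the interval in Mb), with 1 panel per breed apart. Points are the middle, and bars the range, of the authors' levels in the lists that hold the locus; the 20 loci of ES include 14 where it lies below both other breeds.

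At the loci of ES its level was a median of 38.5 points from the mean of the other breeds, which lay 4.10 points from each other. The gaps were 33.7 and 5.27 points for LW, and 33.5 and 4.87 points for WB. The other breeds lay within 10 points of each other at 17 of 20, 12 of 16 and 12 of 17 loci. Their closeness largely follows from the choice, because these loci were not in the list that compares those breeds. The widest gap between them was 36.2 points, at 26224756 to 26225473, a locus of ES, with 60.4% in LW and 96.6% in WB. There ES was only 6.29 points below LW, and the 1 listed site of that region had ES higher, at 66.9% against 20.3%. On the rest of the chromosome the median gaps were 33.7, 34.8 and 33.6 points for the breed apart.

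ES was the low breed at 29212829 to 29213189, with 50.2% in one list, where LW had 97.0% and WB 96.6%. It was also low at 28705326 to 28705717 (52.3%, against 93.2% and 93.1%) and at 24345289 to 24345506 (48.8% to 49.6%, against 86.5% and 88.7%). At such places the low breed was near the middle of the scale and the other breeds were near full. It was the high breed at 23007808 to 23007971, at 58.9%, where LW had 11.9% and WB 13.2%.

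LW was the low breed at 30165695 to 30165767 (62.6%, against 99.4% in ES and 94.6% in WB), at 29461021 to 29461174 (68.3%, against 96.0% in both) and at 28117379 to 28117647 (26.4% to 26.8%, against 63.9% and 55.3%). At 22194015 to 22194441 it was the high breed at 40.6% to 46.1%, where the other breeds were nearly empty, at 4.14% in ES and 4.67% in WB.

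WB was the high breed at 22080306 to 22080784 (43.2% to 45.3%, against 13.7% in ES and 8.82% in LW) and at 22694151 to 22694640, where 37 CG sites had 71.5% to 71.6% against 37.1% and 38.9%. It was the low breed at 22339259 to 22339406, with 42.4% to 44.8% against 88.0% and 88.7%, and at 30779680 to 30780048, with 61.3% to 63.5% against 94.8% and 92.0% to 92.9%.

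All 3 comparisons listed 4 loci. At 22806952 to 22807946, ES had 22.9% against 56.3% in WB over 59 CG sites, and it was 30.8 points below LW, which had 60.7%, over 43. A stretch of 8 CG sites near its start (22807076 to 22807151) had 29.6% in LW and 59.3% in WB, so that LW was low on this stretch and high on the larger region beside it. At 25036962 to 25037607, WB was the highest breed, with 85.0% against 51.2% in ES and 86.0% against 65.9% in LW, and ES was below LW at 54.2% and 79.8%. The 3 breeds thus stood in 1 order across this locus, each pair over its own stretch of it.

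At 29202338 to 29203039, ES had 56.5% against 97.3% in WB at the start and 62.8% against 92.2% in LW over a longer stretch. From 29202791 to 29203015 LW had 94.1% and WB 68.0%. WB thus went from full at the start of this locus to intermediate farther on. At 22845092 to 22847618, a long locus, ES and WB had nearly the same mean, 72.4% and 76.2% over 25 CG sites, although 13 of its CG sites were listed. Within it, 13 CG sites from 22846952 to 22847244 had 53.2% in LW and 88.8% in WB.

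The loci of the interval lay close together. With loci up to 10 kb apart counted as a group, 54.9% of the 142 loci lay in a group of 2 or more (46.7% to 62.9%), against 31.5% of the 899 on the rest of the chromosome (28.5% to 34.6%), and 10 groups in the interval and 22 on the rest held 3 or more. A higher density of loci by itself shortens the distance between them, and its part in this difference was not tested. The largest group on the chromosome spanned 18906 bp from 22803963 to 22822868 and held 8 loci made of 14 regions. The next in the interval held 6 loci from 22707488 to 22731640 and 5 loci from 24620140 to 24645006.

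Along the largest group, LW went up and down against the other breeds. At its first region it had 91.6% to 96.1%, where ES had 53.9% and WB 49.1%. At 22808895 to 22809240 LW was again the highest breed, with 48.1% against 14.6% in ES and 72.3% against 41.4% in WB. The next locus began 216 bp on (22809457 to 22809611), and there LW was the lowest, with 15.7% against 67.9% and 16.1% against 58.8%. At the end of the group (22822130 to 22822868) it was also the lowest, with 15.0% against 64.5% in ES and 21.1% against 51.9% in WB.

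In the group from 24620140 to 24645006 WB changed sides in the same way. It was the highest breed at 24620140 to 24620536, with 88.4% against 44.0% in ES and 91.4% against 52.4% in LW. It was the lowest at 24626840 to 24627245, with 22.3% in both lists against 53.3% and 59.6%, and at 24644711 to 24645006, with 42.1% against 72.2% and 35.8% against 61.1%. Over the interval as a whole, 23 of 52 pairs of consecutive loci with a breed apart had the same breed apart. It was on the same side in 11 pairs and on opposite sides in 12. Such pairs were not counted on the rest of the chromosome, so a change of sides is not shown to be particular to the interval.

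**Figure D5:**
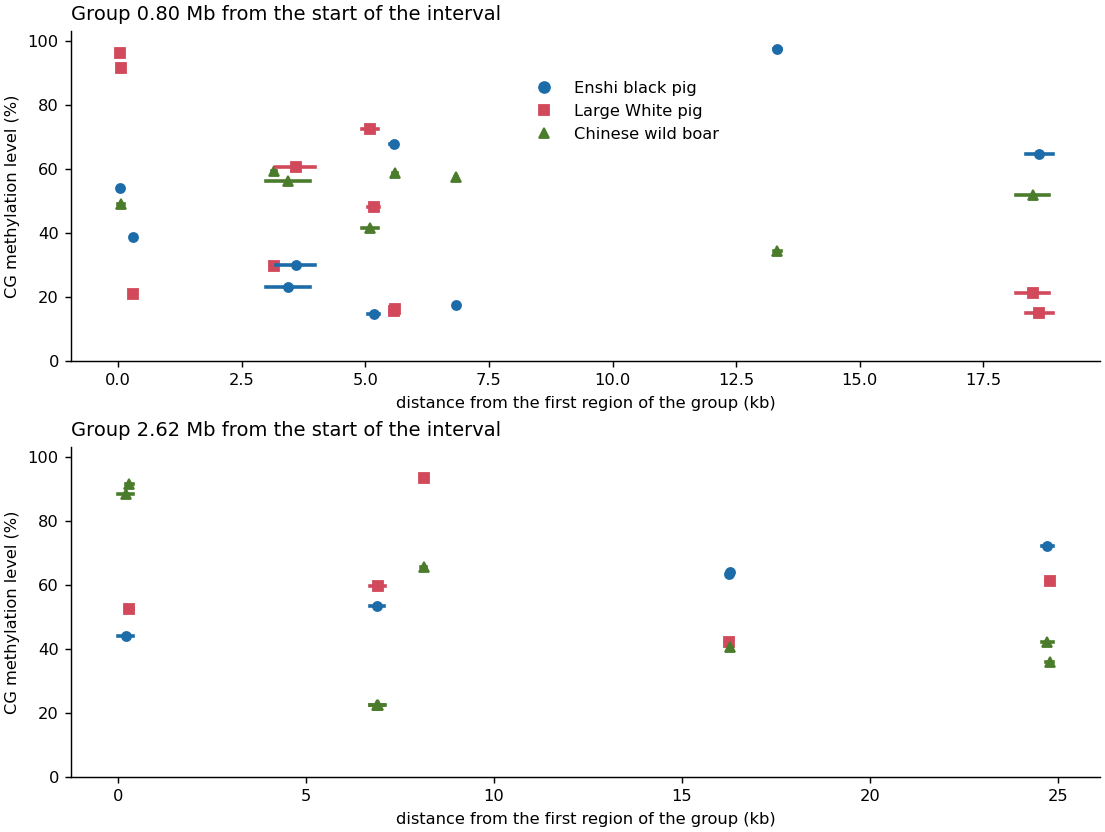
CG methylation level (y axis, %) of the listed regions in 2 groups of loci of the interval (x axis, distance from the first region of the group in kb); each marker is the level of 1 breed in 1 listed region, and the line through it spans the region. In the upper group LW is the highest breed at the start (91.6% to 96.1%) and the lowest at the end (15.0% and 21.1%), and in the lower group WB goes from the highest (88.4% and 91.4%) to the lowest (22.3%).

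The levels of 1 breed could be compared between tables at sites listed in 2 of them. ES had 71 such sites in the interval, with a largest gap between its levels in both tables of 1.16 points. LW and WB had 48 each, with largest gaps of 11.2 and 0.0144. The other breeds' medians of 9.41, 14.4 and 13.7 points from each other at these sites stood beside 4.07, 3.94 and 3.77 points at such sites on the rest of the chromosome. Sites in 2 lists with a difference of this size leave the common breed little room to lie between the others, so that its being on the same side in both at all 71, 48 and 48 sites largely follows from the choice. These are 2 estimates from 1 library and not replicates.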

How the data were processed

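Liver DNA of 3 porcine breeds was sequenced after bisulfite treatment, with 1 methylome per breed. Alignment with Bismark 0.15.0 to Sscrofa10.2 is named in the processing notes of the submitters, whereas the caller of the differences and the thresholds it applied were not given in the sources used here. Per site and region, the authors deposited the estimated level of both breeds as a fraction, and these fractions were multiplied to percent here. Dispersions and a posterior probability of the authors' model are also deposited as a fraction and were not used. The differences, statistics and standard errors that the authors deposited are treated as scores of their model, of which the standard error alone was used, and differences were recomputed from the levels. The deposited p-values and false discovery rates of the authors' own comparisons were not used. Depth per sample was unknown.

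Computation used scipy 1.17.1, pandas 2.3.3 and numpy 2.4.6 in Python 3.11.15, and plots used matplotlib 3.10.9. The steps were tested on simulated data. Sites in the interval and the rest of chromosome 7 were counted per comparison, in bins of 1 Mb and windows of 9 Mb. The 95% intervals of shares are Wilson intervals and those of medians come from order statistics. Regions overlapping by 1 bp were joined into loci. Named regions were, per comparison, the 5 widest of at least 5 CG sites, the 3 longest, the 3 with the most CG sites, the widest in each direction and those overlapping both other lists. Loci with 1 breed apart, and those of the largest groups, were chosen as examples after their values were seen. The members and lists were chosen with earlier results of these data known. Alternatives were thinning of sites, a wider difference, longer or CG-richer regions, moved bounds and omission of the fullest bin, with omission of single regions of many sites chosen after seeing the data. No genome sequence of Sscrofa10.2 was used, so no sequence is printed.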

Additional observations from a re-analysis of the deposited data

How the results depend on the processing

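No paired analysis was possible because every breed is represented by a single methylome. Under the alternatives 87 values were recomputed, of which 52 stayed within the 95% interval of the value as reported, 32 left it, and 3 more crossed 50% from a share whose interval lay to one side of it. Among the 52 and the 32 there were also 7 shares of direction that crossed 50% from an interval that included it. Values run in the order ES with LW, ES with WB, LW with WB unless said otherwise. Among the sites of chromosome 7, the share in the interval was 13.9%, 13.9% and 14.6% with at most 1 site per 100 bp, 11.4%, 13.6% and 8.07% with the interval narrowed by 1 Mb at each end, and 12.7%, 15.0% and 9.55% without the fullest bin. It was 20.8% (ES with LW) and 21.1% (LW with WB) with the interval widened, 18.1% at a difference of 40 points (ES with WB), and 16.8% without the region of most sites (ES with LW, an alternative chosen after seeing the data). The share of regions was 9.60%, 10.3% and 9.92% in the narrowed interval, 10.195%, 11.5% and 11.6% without the fullest bin, and 18.2% for regions of at least 10 CG sites (ES with LW). Narrowing and omission lower these shares by construction. The share of sites lower in the first breed was 54.1% (ES with LW) and 52.3% (LW with WB) with thinned sites, 35.6%, 70.5% and 52.9% in the narrowed interval, 48.9% in the widened one (LW with WB), 37.2%, 71.5% and 55.9% without the fullest bin, and 51.7% and 72.0% without the region of most sites (ES with LW and ES with WB). The 3 crossings from an interval to one side of 50% are those of LW with WB above 50%. By regions of at least 200 bp it was 69.0% (ES with WB) and 61.5% (LW with WB). The median difference of regions was 27.7 points in the narrowed interval and 28.2 without the fullest bin (LW with WB). The cause was not tested. Unknown depth, 1 methylome per breed and smoothed levels limit all of these values.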
